A study of Mus musculus with 6 samples.

Results

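The 10 genes Srsf1, Srsf2, Srsf3, Srsf4, Srsf5, Srsf6, Srsf7, Srsf9, Srsf10 and Srsf11 encode SR proteins, and they were taken by name from the deposited tables of gene counts and splice junction counts. They accounted for 10 of 13932 genes and for 132 of 151811 junctions, and all 10 were measured in every library. The genotypes compared were U2AF1(S34F)/rtTA and U2AF1(WT)/rtTA, with 3 libraries each. They were told apart by the sample titles, since the genotype entry of all 6 samples names S34F, and the direction of every difference rests on those titles. Both carried a doxycycline-dependent U2AF1 transgene together with the rtTA transactivator, so the WT libraries also came from cells with an added U2AF1 transgene and differed from S34F in the substitution. The transgenic marrow had been transplanted into recipient mice, engrafted for more than 6 weeks and induced for 5 days with doxycycline in the chow. Donor-derived common myeloid progenitors, the bone marrow cells that give rise to granulocytes, monocytes, red cells and platelets, were sorted as lineage-negative, c-Kit+, Sca-1-, CD34+ and Fc gamma receptor-negative cells. Each library held marrow pooled from 4 to 5 mice, so a replicate was a pool of animals. The comparison asked how short induction of the mutant splicing factor altered transcripts of myeloid progenitors.

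SR proteins bind RNA through recognition motifs and carry a tail rich in arginine and serine. They sit on exons, help U1 snRNP and the U2AF heterodimer to mark the splice sites, and several of them also accompany mRNA through export and translation. Most SR protein genes hold a poison exon, an alternative exon with an early stop codon whose inclusion directs the transcript to nonsense-mediated decay, and SR proteins promote inclusion in their own transcripts as a negative feedback. U2AF1 is the small subunit of U2AF and reads the AG at the end of an intron. In human cells its S34F form, found in myelodysplastic syndromes, is known to favour acceptors with C over those with T at the base before that AG (position -3).

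Gene counts per library summed to between 46827909 and 51862032 in S34F and between 54727541 and 94562984 in WT, so the WT libraries were the deeper ones. The replicate 1 library of each genotype held 5714 (S34F) and 5580 (WT) reads of the Y-linked gene Ddx3y and the other libraries held 0, so replicate 1 differed in sex from replicates 2 and 3 in both genotypes. U2af1 had 6222, 6311 and 6159 reads in the S34F libraries, against 5791, 8871 and 12060 reads in the WT libraries, and with a transgene in both genotypes they do not check the labels. Among markers of the sorted cells, Mpo stood between 4322 and 5948 CPM in S34F and between 3043 and 6538 CPM in WT, and Ly6a, the gene of Sca-1, between 1.08 and 1.44 CPM in S34F and between 1.10 and 1.84 CPM in WT. Fcgr3 was not absent, at 33.4 to 78.1 CPM in S34F and 38.8 to 111 CPM in WT. Of the marker lists for other cells, the 8 monocyte and dendritic genes summed to 434 to 646 CPM in S34F, against 721 to 910 CPM in WT, and the 5 megakaryocyte genes to 87.5 to 116 CPM in S34F, against 127 to 172 CPM in WT. The summed levels of the erythroid, neutrophil, lymphoid and natural killer lists overlapped between genotypes, and Cd3e, Cd8a and Ncr1 had no row in the gene table. The part of these marker levels in the results below was not tested.

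The poison exons of Srsf7, Srsf3, Srsf6 and Srsf11 are given here because the results turn on their share in the transcripts measured, with the acceptors that compete with those of Srsf7 and Srsf3. Each run gives, in the direction of transcription, the last 20 bases of the intron and then the exon up to its first stop codon in the reading frame carried in from the upstream exon, or 10 exon bases for a competing acceptor. Capitals mark the last 3 intron bases, which begin with position -3, and the stop codon. The reading frames came from the GENCODE annotation of build mm9, and the sequences from the mm9 genome. The Srsf7 stop codon comes after 25 exon bases and leaves 432 nt to the end of the exon. In Srsf3 it comes after 31 bases and leaves 422 nt, in Srsf6 after 149 bases with 116 nt left, and in Srsf11 after 47 bases with 67 nt left. The Srsf7 stretch lies at chr17:80604394-80604441 (minus strand) with its competitor at chr17:80603718-80603747, the Srsf3 stretch at chr17:29176379-29176432 (plus strand) with its competitor at chr17:29177700-29177729, the Srsf6 stretch at chr2:162758531-162758702 (plus strand) and the Srsf11 stretch at chr3:157686274-157686343 (minus strand).
Srsf7 460 nt poison exon: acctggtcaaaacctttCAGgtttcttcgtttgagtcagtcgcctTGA
Srsf7 downstream acceptor: ttttctaacttaaaaaaTAGgtcacgatct
Srsf3 456 nt poison exon: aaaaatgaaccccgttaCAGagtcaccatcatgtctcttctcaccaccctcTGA
Srsf3 downstream acceptor: tttactgtttctgcttcTAGatccccaaga
Srsf6 268 nt poison exon: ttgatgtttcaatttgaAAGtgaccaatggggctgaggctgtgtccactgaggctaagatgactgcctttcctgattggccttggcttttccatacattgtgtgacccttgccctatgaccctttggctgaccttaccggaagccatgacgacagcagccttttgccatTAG
Srsf11 117 nt poison exon: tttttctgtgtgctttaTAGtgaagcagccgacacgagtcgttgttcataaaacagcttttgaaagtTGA

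In S34F progenitors the poison exons of Srsf7 and Srsf3 were included in a smaller share of transcripts than in WT, with differences of -8.02 and -3.497 percentage points. In both genes the genotypes did not overlap. The 117 nt poison exon of Srsf11 was also lower in all S34F libraries, and those of Srsf5, Srsf6 and Srsf9 overlapped. The 104 nt exon of Srsf2, in which no stop codon was called, was higher in all S34F libraries. None of these differences passed the test adjusted over all exons, in edgeR or in DESeq2. In bulk RNA, fewer cells of a type and less of the transcript per cell cannot be told apart. These shares were read from the RNA present, so less splicing of a poison exon and more decay of its transcripts cannot be told apart either. The part of decay was not tested.

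Srsf7 encodes an SR protein with a zinc knuckle that shuttles between nucleus and cytoplasm. Its 460 nt poison exon (chr17:80603962-80604421, minus strand) lies between coding exons, and the annotation held no exon with these ends. Inclusion, the mean of the reads into and out of the exon as a percentage of that mean plus the skipping reads, was 24.98, 21.6 and 21.9% in S34F libraries, against 29.4, 32.3 and 30.8% in WT libraries. Every S34F library was below every WT library. Inclusion averaged 22.8 ± 1.89% in S34F and 30.8 ± 1.44% in WT (SD, n = 3 each), from at least 2329 reads per library. The log2 difference in the ratio of including to skipping reads was -0.59 ± 0.16 (SE), with an unadjusted p of 0.00713 and an adjusted p of 0.284 by edgeR's quasi-likelihood test, and 0.0755 by DESeq2.

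Srsf3 encodes the smallest SR protein. Its 456 nt exon (chr17:29176399-29176854, plus strand) is annotated in transcripts marked for nonsense-mediated decay. It was included at 7.98, 6.16 and 7.37% in S34F libraries, against 9.44, 12.4 and 10.2% in WT libraries. Here too the S34F libraries were all below the WT libraries, although the gap between S34F replicate 1 and WT replicate 1 was small. Inclusion averaged 7.17 ± 0.929% in S34F and 10.7 ± 1.51% in WT (SD, n = 3 each), from at least 4639 reads per library. The log2 difference in the ratio was -0.63 ± 0.18 (SE), with an unadjusted p of 0.00842 and an adjusted p of 0.303 in edgeR, and 0.131 in DESeq2. In replicates 2 and 3 alone, which are of the same sex in both genotypes, the log2 differences were -0.81 for Srsf3 and -0.73 for Srsf7 (edgeR adjusted p = 0.563 and 0.607).

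**Figure D1:**
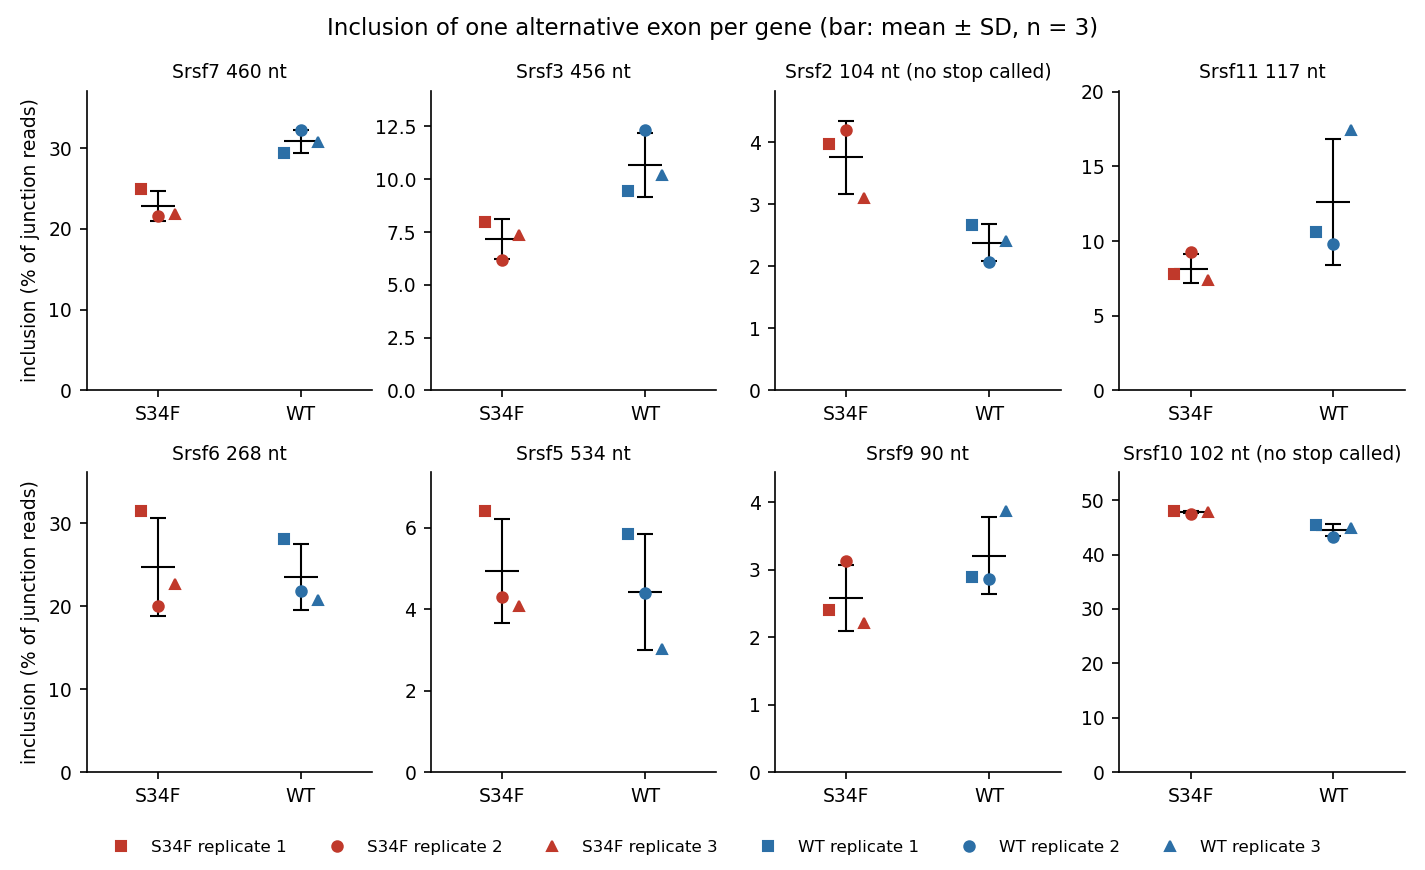
Inclusion of the tested alternative exon with most reads in its minor form, in percent of junction reads (y axis, from 0), for 8 SR protein genes, with libraries as points, S34F left of WT, and bars at the mean ± SD of 3 libraries. The S34F points lie below all WT points for Srsf7, Srsf3 and Srsf11 and above them for Srsf2 and Srsf10, and they overlap for Srsf6, Srsf5 and Srsf9. The Srsf10 panel shows its 102 nt exon, whose value rests almost wholly on the reads in (edgeR unadjusted p = 0.301).

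The reads behind these shares were also compared one junction at a time. The Srsf7 skipping junction stood at 43.7, 40.8 and 38.5 CPM in S34F libraries, against 36.2, 19.9 and 19.8 CPM in WT libraries (log2 difference 0.70, edgeR unadjusted p = 0.00825, adjusted p = 0.588). WT replicates 2 and 3 were low, and WT replicate 1 was close to the S34F libraries. The junction into the Srsf7 exon stood at 15.5, 11.6 and 10.7 CPM in S34F, against 15.5, 8.66 and 8.64 CPM in WT (log2 difference 0.21), and the junction out of it at 13.6, 10.8 and 10.8 CPM in S34F, against 14.6, 10.3 and 8.96 CPM in WT (0.06). Both including junctions overlapped between the genotypes.

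For Srsf3 the skipping junction stood at 99.9, 105 and 104 CPM in S34F libraries, against 88.9, 60.3 and 68.9 CPM in WT libraries (log2 difference 0.51, edgeR unadjusted p = 0.00747, adjusted p = 0.588). The S34F libraries were all higher. The junction into the exon stood at 7.20, 6.57 and 7.75 CPM in S34F, against 9.75, 8.13 and 7.24 CPM in WT (log2 difference -0.22), and the junction out of it averaged 8.75 ± 1.44 CPM in S34F and 8.69 ± 0.228 CPM in WT (0.01). These overlapped. With WT replicate 1 left out, the skipping junctions of Srsf7 and Srsf3 were higher in S34F by 1.04 and 0.67 on the log2 scale (edgeR adjusted p = 0.00473 and 0.0169), where 2.76% of all junctions were called. With both replicate 1 libraries left out, the differences were 0.99 and 0.69 (edgeR adjusted p = 0.0193 and 0.0478), where 0.556% of all junctions were called.

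**Figure D2:**
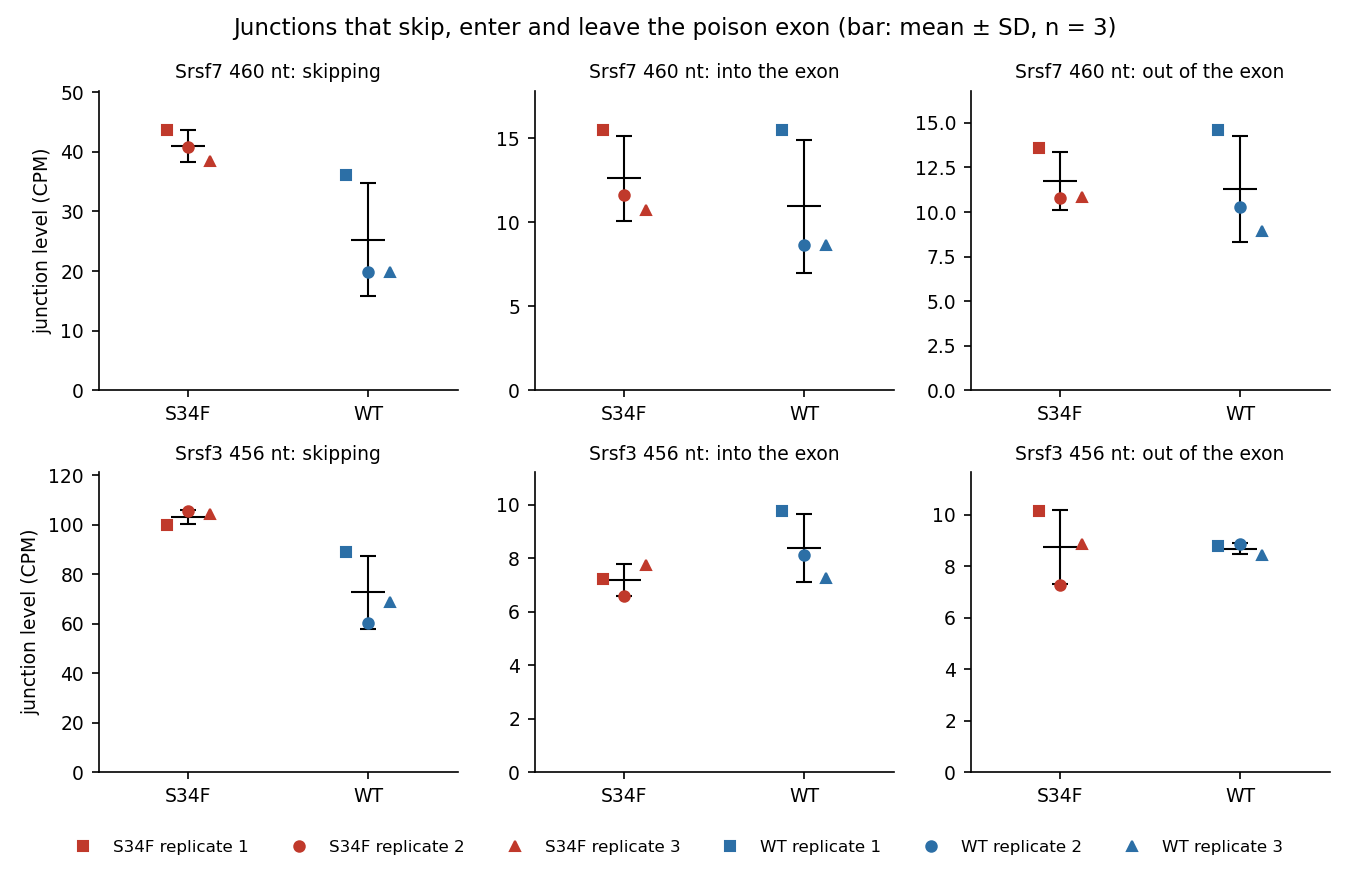
Levels of the junctions that skip, enter and leave the poison exons of Srsf7 (top) and Srsf3 (bottom), in CPM of junction reads (y axis, from 0), with libraries as points, S34F left of WT, and bars at the mean ± SD of 3 libraries. The skipping junctions lie higher in all S34F libraries, while the junctions into and out of the exons overlap.

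The same reads can be set against the other splice sites they compete with. From the donor upstream of the Srsf3 exon, the poison exon took 6.73, 5.87 and 6.91% of reads in S34F libraries, against 9.88, 11.9 and 9.505% in WT libraries, and the genotypes did not overlap (edgeR unadjusted p = 0.0205). Into the exon downstream of it, 9.21, 6.45 and 7.82% of reads came from the poison exon in S34F libraries, against 8.99, 12.8 and 10.9% in WT libraries, and these overlapped (edgeR unadjusted p = 0.0670). From the donor upstream of the Srsf7 exon, its acceptor took 26.2, 22.2 and 21.8% of reads in S34F libraries, against 29.8, 29.6 and 30.4% in WT libraries (edgeR unadjusted p = 0.0884), and the acceptor of the downstream exon 73.8, 77.8 and 78.1% in S34F, against 69.5, 67.9 and 69.6% in WT (edgeR unadjusted p = 0.0597). Into the exon downstream of the Srsf7 poison exon, 23.2, 20.4 and 21.5% of reads came from the poison exon in S34F libraries, against 28.4, 33.7 and 31.1% in WT libraries (edgeR unadjusted p = 0.0139). Reads that joined that downstream exon directly to the upstream one made up 74.6, 77.1 and 76.3% in S34F and 70.2, 65.1 and 68.9% in WT (edgeR unadjusted p = 0.0302). From the upstream donor of both poison exons, the acceptor with C at position -3 thus had the lower share in all S34F libraries and that of the downstream exon, with T, the higher one. Another acceptor with T, that of a shorter Srsf7 form, took 0, 0 and 1 reads from this donor in S34F, against 17, 44 and 0 reads in WT. The pattern of Srsf7 and Srsf3 was not general. The 117 nt exon of Srsf11, with lower inclusion in all S34F libraries, has T at its acceptor and C at the downstream one. Poison exons with C in Srsf5 (534 nt), Srsf9 (358 nt) and Srsf11 (109 and 64 nt) overlapped between genotypes in their inclusion.

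The authors' deposited table of junctions tested each junction within its gene with DEXSeq, and called 512 of 150691 junctions at an adjusted p under 0.05 (0.34%). It called 3 of the 132 SR gene junctions. In the authors' deposited table the junction into the Srsf3 poison exon had a log2 fold change of -0.63 (adjusted p = 3.08e-05) and the junction out of the Srsf7 poison exon one of -0.45 (adjusted p = 0.000611). Both are the poison exons described above, read with another method on the same libraries. The third called junction skips a coding exon of Srsf7 and is described with the junctions below.

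The Srsf7 poison exon had shorter forms that share its reads. A 107 nt form (chr17:80604315-80604421) uses its acceptor and an earlier donor, and a 216 nt form (chr17:80603962-80604177) uses a later acceptor and its donor. The form-specific junctions were rare. The donor of the 107 nt form averaged 1.24 ± 0.0815 CPM in S34F and 0.375 ± 0.372 CPM in WT, with 0 reads in WT replicate 3. The acceptor of the 216 nt form averaged 0.00766 ± 0.0133 CPM in S34F and 0.361 ± 0.367 CPM in WT, with 0 reads in S34F replicates 1 and 2 and in WT replicate 3. Their inclusion values, with differences of -3.89 points for the 107 nt form and -6.597 points for the 216 nt form (edgeR unadjusted p = 0.0406 and 0.00498), therefore rest mostly on the reads of the 460 nt exon. By its downstream junction alone, the 107 nt form had a log2 difference of 1.38, the opposite direction. A 36 nt coding exon of Srsf7 without a stop (chr17:80601509-80601544) was included at 88.5, 88.5 and 89.0% in S34F libraries, against 87.1, 86.1 and 84.0% in WT libraries. All S34F libraries were higher, by 2.91 points on average (edgeR unadjusted p = 0.0336, adjusted p = 0.425).

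**Figure D3:**
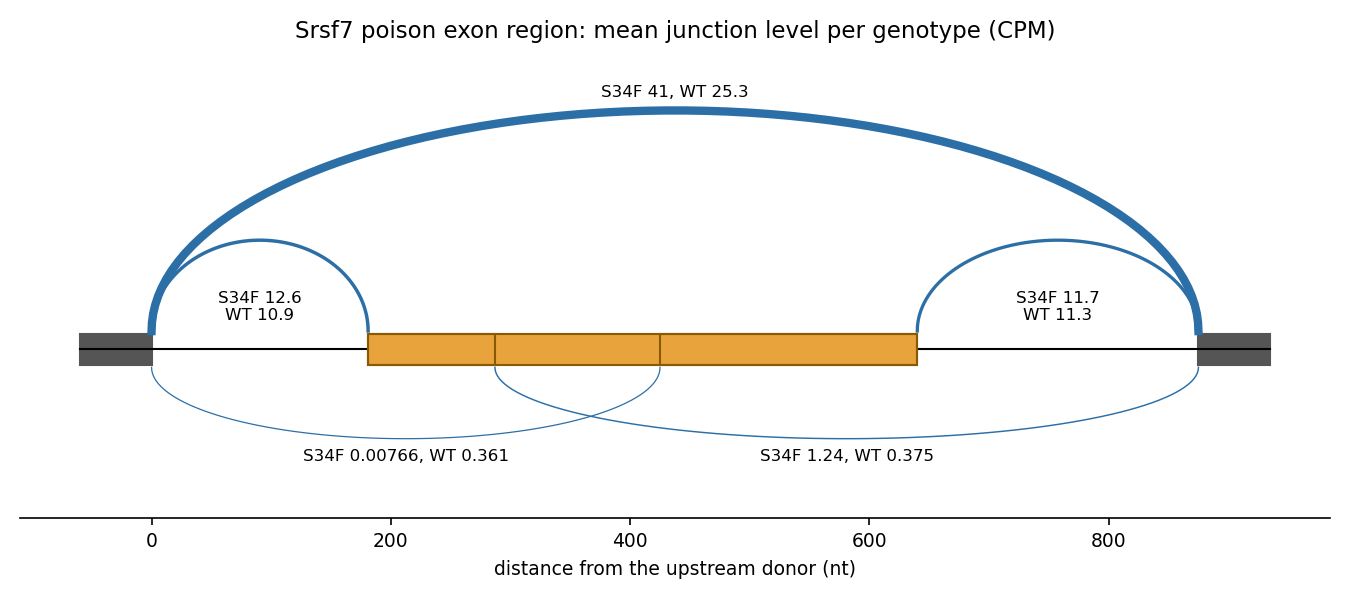
Map of the Srsf7 poison exon region, with distance from the upstream donor in nt on the x axis, grey boxes for the ends of the flanking coding exons (drawn 60 nt wide), an orange box for the 460 nt exon with the borders of its 2 shorter forms, and arcs for junctions labelled with their mean level in each genotype in CPM. The skipping arc is at 41.0 CPM in S34F, against 25.3 CPM in WT, while the arcs into the exon (12.6 CPM in S34F, 10.9 CPM in WT) and out of it (11.7 CPM in S34F, 11.3 CPM in WT) overlap over libraries.

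Srsf2 encodes SC35, an SR protein that is itself mutated in human myelodysplastic syndromes. Its 104 nt exon (chr11:116712962-116713065, minus strand) is annotated in a transcript marked for nonsense-mediated decay and was not in a reading frame, so no stop codon was called in it. It was included at 3.97, 4.20 and 3.10% in S34F libraries, against 2.66, 2.07 and 2.42% in WT libraries, so every S34F library was higher and the direction was opposite to Srsf7 and Srsf3. Inclusion averaged 3.76 ± 0.584% in S34F and 2.38 ± 0.299% in WT (SD, n = 3 each), with an edgeR unadjusted p of 0.00688, an adjusted p of 0.282 and a DESeq2 adjusted p of 0.114. The junction into the exon stood at 1.81, 2.13 and 1.84 CPM in S34F, against 1.16, 1.05 and 1.17 CPM in WT (edgeR unadjusted p = 0.00918). The junction out of it held more reads and overlapped between the genotypes. It stood at 4.87, 4.18 and 3.22 CPM in S34F, against 2.81, 2.45 and 4.79 CPM in WT (edgeR unadjusted p = 0.313). The skipping junction stood at 80.8, 71.8 and 79.2 CPM in S34F, against 72.4, 82.8 and 120 CPM in WT, and WT replicate 3 stood apart from the other libraries. From the donor of that junction, the share of reads to its acceptor was 97.6, 96.8 and 97.5% in S34F and 98.0, 98.7 and 98.8% in WT (edgeR unadjusted p = 0.0253). The junction into the exon is listed under an overlapping gene, ENSMUSG00000093603, and not under Srsf2.

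Srsf11 encodes an SR-related protein that binds U2AF. Its 117 nt exon was included at 7.78, 9.24 and 7.41% in S34F libraries, against 10.6, 9.78 and 17.5% in WT libraries, so the S34F libraries were lower but WT replicate 3 made most of the difference. Inclusion averaged 8.14 ± 0.963% in S34F and 12.6 ± 4.22% in WT (SD, n = 3 each), a log2 difference in the ratio of -0.66 (edgeR unadjusted p = 0.0707), and without WT replicate 3 the log2 difference was -0.36. The other poison exons of Srsf11 overlapped between genotypes, at 8.81 ± 1.39% in S34F and 7.89 ± 2.34% in WT for the 109 nt exon and at 15.5 ± 3.24% in S34F and 13.9 ± 3.89% in WT for the 64 nt exon. The direct junction from the 109 nt exon to the exon after the 117 nt one made up 2.75, 2.77 and 3.69% of reads into that exon in S34F libraries, against 2.01, 0.497 and 1.10% in WT libraries (edgeR unadjusted p = 0.0254). It rested on 20, 17 and 22 reads in S34F and on 15, 6 and 12 reads in WT.

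Srsf6 encodes an SR protein with a pair of RNA recognition motifs. Its 268 nt exon (chr2:162758551-162758818) was included at 31.4, 20.1 and 22.6% in S34F libraries, against 28.0, 21.8 and 20.7% in WT libraries. The replicate 1 library was the highest in both genotypes, and the genotypes overlapped. The difference was 1.20 points (edgeR unadjusted p = 0.770, adjusted p = 0.944). Srsf5, whose product belongs to the same structural class, included its 534 nt exon (chr12:82049116-82049649) at 6.40, 4.31 and 4.09% in S34F libraries, against 5.85, 4.41 and 3.02% in WT libraries, with replicate 1 again highest in both genotypes. Its difference was 0.511 points (edgeR unadjusted p = 0.541).

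Srsf9, which encodes a short SR protein, included its 90 nt exon at 2.40, 3.13 and 2.21% in S34F libraries, against 2.90, 2.87 and 3.86% in WT libraries, and these overlapped (edgeR unadjusted p = 0.218). Reads into this exon numbered 7, 9 and 4 in S34F and 7, 1 and 0 in WT, so its inclusion rests mostly on the reads out. The 358 nt exon of Srsf9 was included at 1.36 ± 0.274% in S34F libraries against 1.43 ± 0.724% in WT. For Srsf4 the exon with an early stop was read by acceptor choice. This exon of 207 nt with a stop codon after 112 bases took 17.5, 9.52 and 10.3% of reads from its upstream donor in S34F libraries, against 15.5, 10.5 and 9.70% in WT libraries (edgeR unadjusted p = 0.909). As with Srsf6, replicate 1 was highest in both genotypes. The Srsf4 exon tested as a cassette, of 174 nt, lies further downstream and was included at 92.7 to 97.5% in S34F libraries, against 87.3 to 100% in WT libraries. For Srsf1 no cassette exon passed the filters, and the acceptor of its exon with an early stop, after 36 bases, took 1.68, 1.17 and 1.33% in S34F libraries, against 1.21, 0.701 and 1.66% in WT libraries (edgeR unadjusted p = 0.476).

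Srsf10 encodes an SR protein that acts as a splicing repressor when dephosphorylated. It holds an AT-AC intron, a class removed by the minor spliceosome, next to an alternative GT-AG route that starts 62 nt further into the intron. The ends of the AT-AC intron (chr4:135414315-135414344 and chr4:135417669-135417698, plus strand) and the acceptor of the GT-AG route (chr4:135414737-135414766) are shown because the choice between them was measured, with 10 exon bases and 20 intron bases each, and capitals mark the terminal bases of the AT-AC intron and the last 3 intron bases of the other acceptor.
Srsf10 AT-AC intron start: catatgttcaATatcctttcttcagatgga
Srsf10 AT-AC intron end: agccccttaacatttagcACatttgaggat
Srsf10 GT-AG acceptor: gtcctctgttgttacctCAGaatgtaaagc
The exon form that ends at the GT-AG donor meets a stop codon after 142 bases. The GT-AG route made up 26.0, 24.7 and 29.4% of the reads of both routes in S34F libraries, against 28.9, 22.6 and 20.1% in WT libraries. These overlapped (exact permutation p = 0.400, two-sided). A rarer junction that skipped the preceding exon and went straight to the GT-AG acceptor made up 2.98, 1.69 and 1.02% of reads at that acceptor in S34F libraries, against 5.52, 8.28 and 7.59% in WT libraries. Every S34F library was lower, on 4 to 13 reads in S34F and 23 to 38 reads in WT (edgeR unadjusted p = 0.00600, adjusted p = 0.590; DESeq2 adjusted p = 0.114). Seen from its donor, the same junction took 0.874, 0.447 and 0.325% in S34F and 1.68, 1.94 and 1.38% in WT (edgeR unadjusted p = 0.00738).

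Further donor choices of Srsf10 had an unadjusted edgeR p under 0.05. The AT-AC intron from its main donor made up 99.4, 98.9 and 99.0% of reads into its acceptor in S34F libraries, against 98.2, 98.6 and 98.1% in WT libraries (edgeR unadjusted p = 0.0242). Into the exon downstream of the 102 nt exon, the 102 nt exon supplied 6.41, 5.13 and 7.38% of reads in S34F libraries, against 3.90, 3.03 and 1.27% in WT libraries (edgeR unadjusted p = 0.0283), and the donor at the end of the exon upstream of it, which has forms of 51 and 54 nt with the same donor, 89.6, 89.9 and 89.5% in S34F, against 94.3, 92.9 and 96.1% in WT (edgeR unadjusted p = 0.0236). The 102 nt exon carries no stop codon in frame, and no annotated exon has these ends, although all 102 of its bases are coding in annotated transcripts. Its reads in averaged 21.2 CPM in S34F, against 18.5 CPM in WT, while its reads out averaged 0.839 CPM in S34F, against 0.340 CPM in WT. Its inclusion of 47.8 ± 0.226% in S34F and 44.5 ± 1.14% in WT therefore rests almost wholly on the reads in.

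Of 36 candidate cassette exons in the 10 genes, 22 in 9 genes passed the read filters, and 14 of these carried a stop codon in frame. None was called after adjustment by edgeR, which called 2 of all 7260 exons (0.0275%), or by DESeq2, which called 98 (1.35%). At an unadjusted edgeR p under 0.05, 2 SR gene exons were higher and 4 lower in S34F, or 27.3%, beside 10.8% of all exons (3.87% higher and 6.91% lower). The 4 lower ones were the 3 overlapping Srsf7 forms and the Srsf3 exon, so they amount to 2 separate events. Of the 22 exons, 14 had a log2 difference above 0 and 8 below, beside 44.9% of all exons above 0, and the median was 0.13, beside -0.084 over all exons. In 9 of the 22 the genotypes did not overlap, 4 higher and 5 lower, beside 19.7% of all exons (8.06% higher and 11.6% lower). The 4 tested exons of Srsf5, the 2 of Srsf6, the 2 of Srsf2 and the 2 of Srsf10 share reads within their gene. So do the 3 Srsf7 forms and the 117, 109 and 64 nt exons of Srsf11. These shares and the median therefore do not rest on 22 independent exons.

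Of 48 acceptor choices tested, edgeR called 0, and it called 0 of all 29709 (0.0%), while DESeq2 called 0 of the 48 and 376 of all (1.27%). At an unadjusted edgeR p under 0.05 there were 2 higher and 3 lower choices, or 10.4%, beside 7.5% of all. Of 53 donor choices, edgeR and DESeq2 called 0 each, beside 3 (0.00997%) and 242 (0.804%) of all 30084. At an unadjusted edgeR p under 0.05 there were 5 higher and 4 lower choices, or 16.98%, beside 6.41% of all. Choices at a shared site are complements of each other and are not independent.

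The bases at position -3 of the 86 distinct GT-AG acceptors of these genes were A in 12, C in 34, G in 1 and T in 39. Among all 129003 distinct GT-AG acceptors in the junction table, 62.7% had C, 30.6% T, 6.32% A and 0.332% G. T was thus the most frequent base in the SR genes and C in the whole table. Of the exons described above with an early stop, those of Srsf10 aside, the acceptors with C were those of the 460 nt exon of Srsf7, the 456 nt exon of Srsf3, the 534 nt exon of Srsf5, the 358 nt exon of Srsf9 and the 109 and 64 nt exons of Srsf11, with A that of Srsf6, and with T those of the 117 nt exon of Srsf11, the 90 nt exon of Srsf9, the 207 nt exon of Srsf4, the 216 nt form of Srsf7 and the early-stop exon of Srsf1. The 107 nt form of Srsf7 shares the acceptor of the 460 nt exon.

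The gene levels of Srsf7, Srsf3 and Srsf2 were higher in all S34F libraries than in all WT libraries, by 0.50, 0.36 and 0.32 on the log2 scale of CPM. For Srsf2 the direction turned in FPKM and in summed junction reads. Srsf3 also averaged slightly lower in S34F in FPKM, with a log2 ratio of means of -0.048 where the median over 9454 genes was -0.33. Its summed junction reads averaged higher, at 628 CPM in S34F against 477 CPM in WT. Of the 10 genes, 7 had a log2 difference above 0 and 3 below (Srsf11, one of the 3, was at 0.0013 with DESeq2's size factors), beside 49.1% of all genes above 0, with a median of 0.15 beside -0.0052 over all 13905 genes tested. None was called after adjustment by edgeR or DESeq2. For all genes edgeR called 0 (0.0%), with 1265 genes at an unadjusted p under 0.05 (9.1%), and DESeq2 called 96 (0.689%). At an unadjusted edgeR p under 0.05, 3 of the 10 SR genes were higher, beside 4.39% of all genes, and 0 were lower, beside 4.7%. In 3 the genotypes did not overlap, all with S34F higher, beside 15.6% of all genes (7.16% higher and 8.47% lower).

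Srsf7 stood at 352, 295 and 290 CPM in S34F libraries, against 287, 202 and 172 CPM in WT libraries. It averaged 312 ± 34.5 CPM in S34F and 220 ± 59.7 CPM in WT (SD, n = 3 each), with a log2 difference of 0.50 ± 0.19 (SE; edgeR unadjusted p = 0.0311, adjusted p = 0.545; DESeq2 adjusted p = 0.313). WT replicate 1 almost reached the lowest S34F library. Srsf3 stood at 699, 596 and 623 CPM in S34F libraries, against 594, 463 and 439 CPM in WT libraries, with averages of 639 ± 53.4 CPM in S34F and 499 ± 83.1 CPM in WT (edgeR unadjusted p = 0.0336, adjusted p = 0.548). Srsf2 stood at 89.0, 75.5 and 80.8 CPM in S34F libraries, against 75.4, 61.0 and 59.5 CPM in WT libraries, with averages of 81.8 ± 6.81 CPM in S34F and 65.3 ± 8.80 CPM in WT (edgeR unadjusted p = 0.0328, adjusted p = 0.545). For all 3 genes the narrowest distance between the genotypes was that to WT replicate 1.

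The Srsf2 gene level is uncertain. In the authors' FPKM it stood at 61.0, 119 and 114 in S34F libraries, against 151, 164 and 229 in WT libraries, so every S34F library was lower, with a log2 ratio of means of -0.88 where the median of all genes was -0.33. Its summed junction reads stood at 99.9, 89.8 and 102 CPM in S34F, against 98.2, 101 and 141 CPM in WT, which overlapped and averaged lower in S34F. Its junction reads per gene read were 0.975, 1.04 and 1.09 in S34F libraries, against 1.14, 1.39 and 2.00 in WT libraries, and the S34F libraries were all lower. The main junction of Srsf2 was higher in WT replicate 3 than in any other library, while its gene level in CPM was the lowest there. The overlapping gene named above is annotated at this locus, and the part of the overlap in the gene level was not tested. For Srsf3 and Srsf7, in contrast, the ratios overlapped, at 0.855 ± 0.0463 in S34F and 0.819 ± 0.0366 in WT for Srsf3 and at 1.29 ± 0.0328 in S34F and 1.29 ± 0.0909 in WT for Srsf7. Srsf4 was the other gene whose libraries did not overlap, at 0.423 ± 0.00663 in S34F and 0.439 ± 0.0123 in WT.

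Srsf9, at 60.4 ± 1.31 CPM in S34F libraries against 51.1 ± 8.24 CPM in WT, had a log2 difference of 0.24, and Srsf10, at 297 ± 42.2 CPM in S34F libraries against 259 ± 10.6 CPM in WT, one of 0.20. Both overlapped between genotypes. Srsf1, the founding SR protein, averaged 838 ± 67.4 CPM in S34F libraries against 776 ± 89.8 CPM in WT (0.11), and Srsf5 averaged 589 ± 35.9 CPM in S34F libraries against 561 ± 77.2 CPM in WT (0.07). Differences at or below 0 were seen for Srsf11, at 229 ± 16.1 CPM in S34F libraries against 229 ± 23.1 CPM in WT, Srsf4, at 79.4 ± 5.74 CPM in S34F libraries against 84.8 ± 14.04 CPM in WT (-0.09), and Srsf6, at 441 ± 40.2 CPM in S34F libraries against 474 ± 23.2 CPM in WT (-0.10). The unadjusted edgeR p of these 7 genes was between 0.0975 and 0.994. The authors' deposited table gave log2 fold changes of 0.40 for Srsf7, 0.31 for Srsf3 and 0.29 for Srsf2, with adjusted p-values of 0.322, 0.368 and 0.409.

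**Figure D4:**
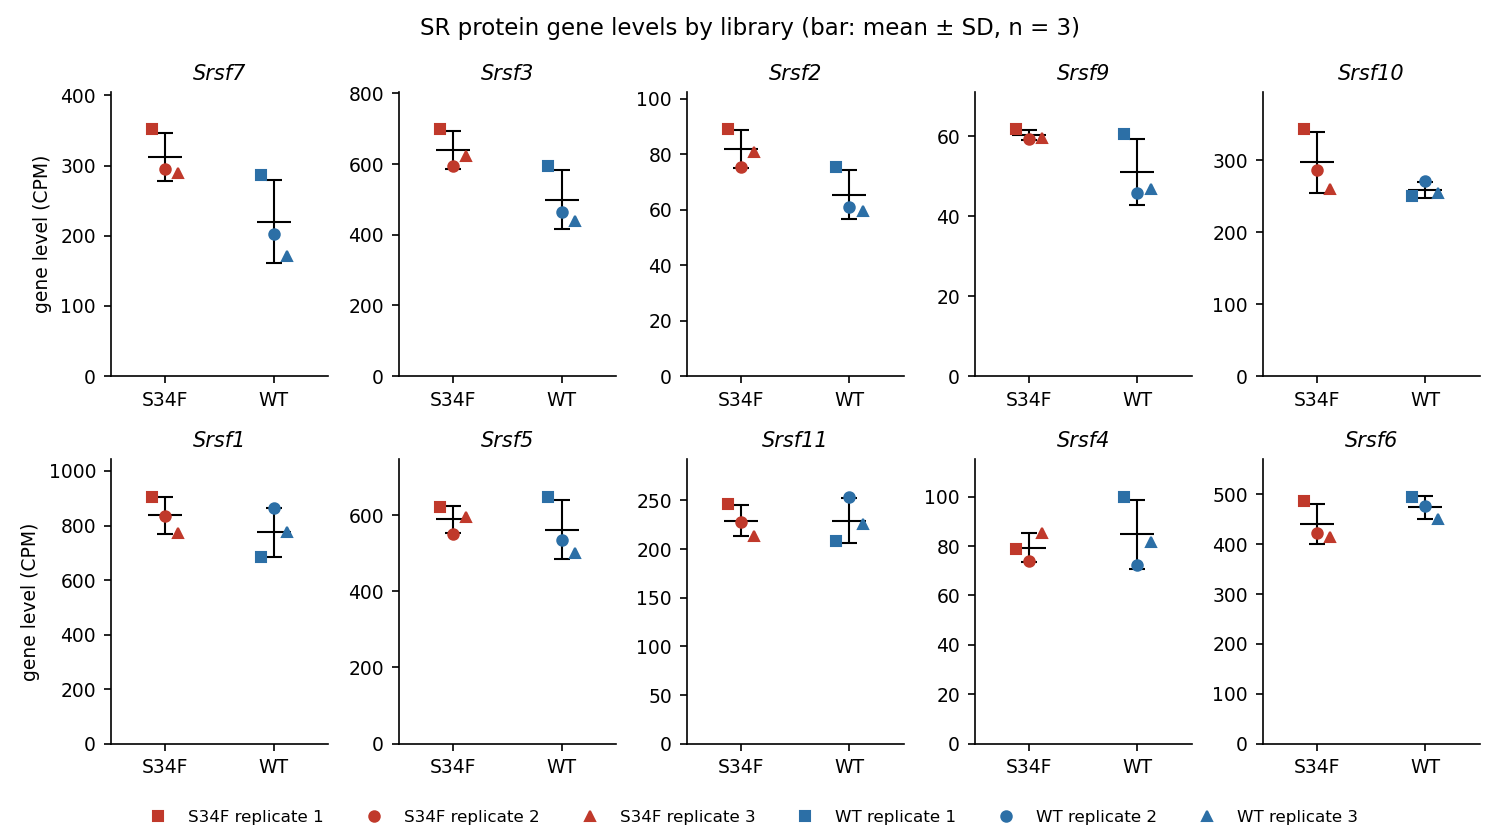
Gene level of the 10 SR protein genes in CPM (y axis, from 0), ordered by their log2 difference, with libraries as points, S34F left of WT, replicate 1 as squares, and bars at the mean ± SD of 3 libraries. Srsf7, Srsf3 and Srsf2 do not overlap between genotypes, and for Srsf7, Srsf3, Srsf2 and Srsf9 the WT replicate 1 lies above the other WT libraries.

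The calls on gene level changed when replicate 1 libraries, which also differed in sex from the others, were left out. Library and sex cannot be told apart there. Without WT replicate 1, 4 of the 10 SR genes were called higher in S34F, where 1172 of 13921 genes were called (8.42%). They were Srsf7 (log2 difference 0.74, edgeR adjusted p = 0.0179), Srsf3 (0.50, 0.0301), Srsf9 (0.38, 0.0393) and Srsf2 (0.44, 0.0415). By Ddx3y, that comparison leaves one sex in WT and both in S34F. Without both replicate 1 libraries, Srsf7 was called (log2 difference 0.65, edgeR adjusted p = 0.0351) and Srsf3, Srsf2 and Srsf9 were not (0.43, 0.38 and 0.36; adjusted p = 0.0576, 0.0929 and 0.0934), where 599 of 13919 genes were called (4.3%). In the replicate 1 pair alone the log2 differences were 0.30 for Srsf7, 0.24 for Srsf3 and 0.24 for Srsf2. Within WT, levels of Srsf7, Srsf3 and Srsf2 were lower in the deeper libraries, and the part of depth in these differences was not tested.

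Per length, in the authors' FPKM averaged over all 6 libraries, Srsf1 was the most abundant at 184, followed by Srsf5 at 173, Srsf2 at 140, Srsf3 at 112, Srsf6 at 87.4, Srsf7 at 82.7, Srsf10 at 58.9, Srsf11 at 50.1, Srsf9 at 31.8 and Srsf4 at 9.09. Neighbours in this order overlapped in their range over libraries, except at its lower end, where the highest library of Srsf9 was below the lowest of Srsf11 (38.5) and the highest of Srsf4 (12.4) below the lowest of Srsf9. The order differed between genotypes in a pair of places. Srsf2 averaged 98.2 in S34F, below Srsf3 at 110, and 181 in WT, above Srsf3 at 114, and Srsf6 averaged 72.6 in S34F, below Srsf7 at 86.3, and 102 in WT, above Srsf7 at 79.1. Apart from this order and the levels of Srsf2 and Srsf3, FPKM was not compared between genotypes, since its median log2 difference over 9454 genes was -0.33, where the counts gave -0.0052.

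Of 117 SR gene junctions tested, edgeR called 0, beside 26 of all 125489 (0.0207%), and DESeq2 called 0, beside 202 of all (0.133%). Without WT replicate 1 edgeR called 13 of 116 (11.2%), all higher in S34F, beside 2.76% of all, and without both replicate 1 libraries 6 of 116 (5.17%), all higher, beside 0.556% of all. At an unadjusted edgeR p under 0.05, 17 were higher and 3 lower in S34F, or 17.1%, beside 8.0% of all junctions (4.16% higher and 3.84% lower). Of the 117, 69 had a log2 difference above 0, beside 49.3% of all, and in 16 all S34F libraries were higher and in 5 all lower, beside 13.6% of all junctions (6.74% higher and 6.9% lower). Junctions of a gene share its level, and most of the higher ones belonged to Srsf3 and Srsf7. The lowest p, 0.000179 (edgeR adjusted p = 0.229), was that of an Srsf7 junction that skips a 111 nt coding exon and joins annotated ends not annotated as a pair. It held 23, 18 and 11 reads in S34F libraries and 0 in every WT library, a ratio of 25.8 against an assumed floor of 3 reads over the WT group. It is the third junction called in the authors' deposited table (adjusted p = 2.33e-05). In S34F libraries the 111 nt exon was still included at 98.8, 98.8 and 99.3%, against 100% in the WT libraries. A junction of Srsf2 went the other way, with 0 reads in S34F and 24, 35 and 0 reads in WT replicates 1, 2 and 3. With the same floor in S34F the ratio was 13.2, and the reads came from 2 of the 3 WT libraries. Zeros were also seen in the deepest library, WT replicate 3, at rare junctions with reads in the other WT libraries. The donor of the Srsf7 107 nt form, for example, held 36, 23 and 0 reads in WT replicates 1, 2 and 3. Both ratios therefore depend on the floor and are not lower bounds.

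Genes that work with SR proteins were read from the same fit. SR-related and Tra2 proteins had 12 of 17 measured genes above 0 and 5 below, with a median log2 difference of 0.19. The lowest p-values were those of Pnn, a nuclear speckle protein gene at 170, 124 and 151 CPM in S34F libraries, against 132, 59.98 and 51.6 CPM in WT libraries (log2 difference 0.87, edgeR unadjusted p = 0.0339), and Tra2b, a splicing activator gene with a difference of 0.32 (edgeR unadjusted p = 0.0856). WT replicate 1 was above the lowest S34F library for Pnn. Factors of nonsense-mediated decay, the route that removes poison exon transcripts, had 8 of 8 measured genes above 0, with a median of 0.24, where 49.1% of all genes were above 0. Their lowest p-values were those of Upf3b (log2 difference 0.55, edgeR unadjusted p = 0.0160) and Upf3a (0.45, edgeR unadjusted p = 0.0453), which link the exon junction to the decay machinery. In each of these 8 genes WT replicate 1 was the highest WT library.

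The kinases that phosphorylate SR proteins had 3 of 8 genes above 0 and 5 below, with a median of -0.018. Clk3 was lower, at 43.0, 45.8 and 52.3 CPM in S34F libraries, against 62.1, 62.3 and 69.9 CPM in WT libraries (log2 difference -0.46, edgeR unadjusted p = 0.00356), and Srpk2 was higher, at 152, 181 and 183 CPM in S34F, against 137, 131 and 132 CPM in WT (0.37, edgeR unadjusted p = 0.00764). Neither gene overlapped between the genotypes. Import receptors and export adaptors had 4 of 7 above 0, with a median of 0.0037. The lowest p-values were those of Thoc5 (log2 difference -0.59, edgeR unadjusted p = 0.0194) and Thoc2 (0.38, edgeR unadjusted p = 0.0409), subunits of the THO complex that loads mRNA for export. No gene of these lists was called after adjustment by edgeR or DESeq2. The lowest edgeR adjusted p in them was 0.538.

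**Figure D5:**
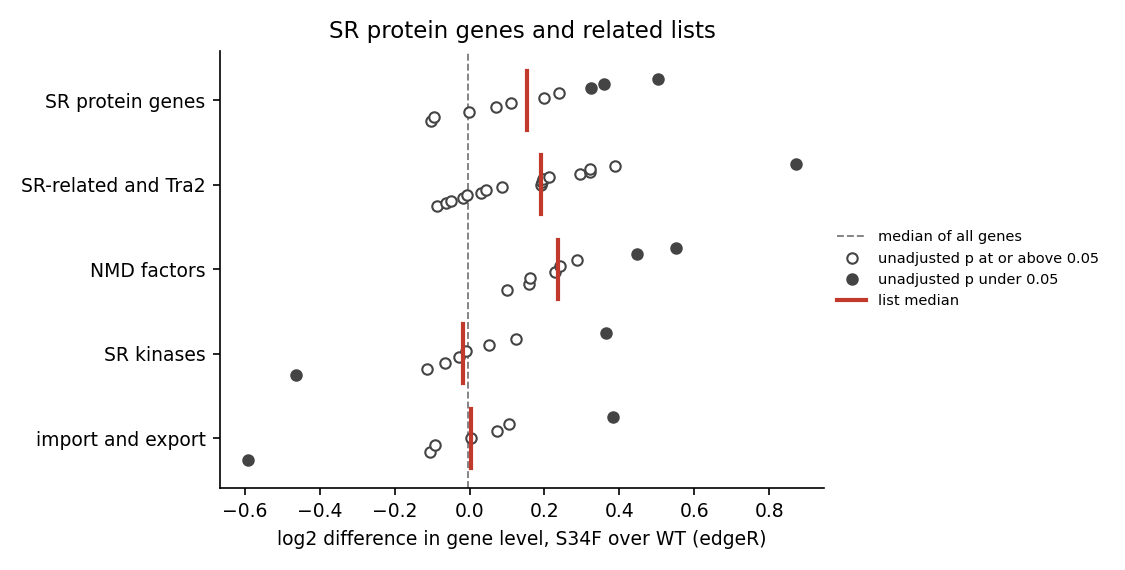
Log2 difference in gene level, S34F over WT (x axis), for each gene of the SR protein genes and of 4 related lists, with points filled where the unadjusted edgeR p was under 0.05, red bars at list medians, and a dashed line at the median of all genes, -0.0052. The list medians lie at 0.15 for the SR protein genes, 0.19 for the SR-related list, 0.24 for nonsense-mediated decay, -0.018 for the kinases and 0.0037 for import and export.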

How the data were processed

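RNA depleted of ribosomal RNA was sequenced in 6 libraries as stranded paired reads of 100 bp and aligned to mouse build mm9, per the labels' protocols. Alignment used TopHat2 2.0.8, per the submitters' processing notes, which also list HTSeq 0.5.4p1, Cufflinks 2.1.1, Bowtie2 2.1.0 and, for statistics, DESeq2 1.6.1. How the counting treated strand and which annotation it used is not given in the sources used here. Per the file headers, the deposited counts are unnormalized, with 1 table by gene and 1 by splice junction. The authors' deposited tables also held FPKM, fold changes as ratios, log2 fold changes, p-values, and a signal and scores of DEXSeq, which are named where printed. Columns named MT were read as S34F, and groups were taken from the sample titles, since the genotype entry names S34F for all 6 samples.

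Gene and junction counts were tested with edgeR 4.0.16 (quasi-likelihood, TMM factors 0.99 to 1.01, low counts filtered, Benjamini-Hochberg adjustment over the whole table, threshold 0.05) in R 4.3.3. CPM are counts scaled to library size with the TMM factors. Cassette exons of 10 to 1000 nt, acceptor choices (reads from 1 donor) and donor choices (reads into 1 acceptor) were tested as the interaction of genotype with form, with a term for each library, where each library had 20 reads and the minor form 2% (exons) or 1% (choices). DESeq2 1.42.0 and limma 3.58.1 (0.5 added to counts) were alternatives. The table's smallest totals were 54 reads for a gene and 12 for a junction, so rarer features were not seen. Junction positions were checked on the genome. They are the flanking exon bases, with GT-AG found 1 base inward. The tests of gene levels, cassette exons, acceptor choices and donor choices were checked on simulated data, and that of junction levels was not.

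The genes and lists were chosen with earlier results of these data known. Every SR gene was named with its level. For exons, the tested one with most reads in its minor form and any exon or choice at an unadjusted edgeR p under 0.05 were named, and from each list the 2 genes of lowest p. The Srsf1 and Srsf4 choices, the Srsf10 route and the shorter Srsf11, Srsf9 and Srsf7 exons were added after their values were seen. A p that misses the threshold does not show that values did not differ.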

Additional observations from a re-analysis of the deposited data

How the results depend on the processing

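With 3 libraries a genotype, an exact permutation test of 1 value cannot go below p = 0.1, and exons or junctions with few reads were outside the tests. Of 487 values of 39 SR gene results under the alternatives, 451 kept their direction and their side of the threshold, 10 newly passed it and 26 changed sign, and 29 of the 39 results had no change of sign. The cause of these changes was not tested. The log2 difference of the ratio ranged from -0.73 to -0.51 for the Srsf7 460 nt exon (lowest adjusted p 0.0755), from -0.81 to -0.50 for the Srsf3 456 nt exon (0.131) and from 0.55 to 0.81 for the Srsf2 104 nt exon (0.114) over the alternatives run. The log2 difference in gene level ranged from 0.35 to 0.74 for Srsf7, from 0.27 to 0.50 for Srsf3 and from 0.26 to 0.44 for Srsf2. DESeq2 called 96 genes, 98 exons, 376 acceptor choices, 242 donor choices and 202 junctions, and limma called 0 exons, 59 acceptor choices and 66 donor choices. With both replicate 1 libraries left out, 599 genes, 0 exons, 0 donor choices and 724 junctions were called, and exons also came to 0 with a lower share of the minor form or the upstream junction alone. Leaving out 1 library gave 0 to 1172 genes, 0 to 0 exons, 0 to 5 donor choices and 12 to 3563 junctions, with the highest gene and junction counts without WT replicate 1. With the replicate number as a block, 5 genes, 0 exons, 0 donor choices and 59 junctions were called, and 0 of the SR genes or their exons, choices and junctions. Deviations of same-numbered libraries correlated over 13905 genes at 0.269, 0.336 and 0.0357, and S34F replicate 3 correlated more with WT replicate 1 (0.139), so the numbers were not taken as pairs, although the replicate 1 libraries also share their sex by Ddx3y. Without both replicate 1 libraries the log2 differences were -0.031 for the Srsf1 gene, 0.049 for the Srsf4 gene, -0.15 for the Srsf4 174 nt exon (-0.18 in limma) and -0.11 for the junction out of the Srsf3 exon (-0.00099 with the replicate block). Srsf11 gene level was 0.0016 in DESeq2, 0.0013 with the other size factors and 0.0015 with the replicate block. The downstream junction alone gave 1.38 for the Srsf7 107 nt exon, against -0.42 with both junctions, and the Srsf4 174 nt exon stood at 0.62 in the test as reported. Leaving out 1 library gave ranges of -0.19 to 0.043 for the Srsf4 gene, -0.0050 to 0.19 for Srsf5, -0.065 to 0.079 for Srsf11, -0.026 to 1.47 for the Srsf4 174 nt exon, -0.071 to 0.43 for the Srsf5 534 nt exon, -0.17 to 0.27 for the Srsf6 268 nt exon, -0.11 to 0.13 for the junction out of the Srsf3 exon and -0.083 to 0.28 for that out of the Srsf7 exon.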
